A study of Homo sapiens with 5 samples.

Results

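The 10 genes described here are SLC7A11, CTH, CBS, GCLC, GCLM, GSS, GSR, GPX4, TXNRD1 and NQO1. Their products take up cystine, make cysteine and glutathione, or reduce oxidised glutathione, lipid peroxides, thioredoxin or quinones. The genes were chosen by the differences already seen between the K13A and parental libraries of these data, together with the rest of their pathway. Each was found by its Ensembl ID among the 58812 gene IDs of the count table. RNA sequencing counts came from C4-2B, an LNCaP-derived line that models castration-resistant prostate cancer. The libraries were 2 of clone C4K13A, 1 of clone C5K13A and 2 of parental cells. The clones carry the K13A change of HOXB13, a homeobox factor of the prostate lineage, which replaces with alanine a lysine that can be acetylated. Clones and parental cells were grown in the same medium, named only as C4-2B media, and the labels give no treatment beyond it. Each clone stands for a single selected line. The labels do not say whether libraries of 1 group were grown as separate cultures, so the spread behind each p-value may be technical.

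Cystine, the oxidised dimer of cysteine, enters cells through an exchanger made of the light chain SLC7A11 and the heavy chain SLC3A2, and is reduced to cysteine inside. Cysteine can also be made from methionine by transsulfuration, in which CBS forms cystathionine and CTH cleaves it. Glutamate-cysteine ligase and glutathione synthetase then build glutathione, which GPX4 spends on lipid peroxides and GSR restores with NADPH. Transcription of SLC7A11 and CTH is known to respond to ATF4, the factor of amino acid and endoplasmic reticulum stress, and that of SLC7A11, GCLC, GCLM, GSR, TXNRD1 and NQO1 to NRF2 (NFE2L2), the factor of oxidative stress.

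Total counts ran from 43190276 to 48442286 in the K13A libraries and were 57282373 and 51978974 in the parental ones. Expression is given as CPM, counts per 1000000 counts of a library after scaling with TMM factors. The 10 prostate luminal markers summed to between 5626 and 6457 CPM in the K13A libraries and between 5442 and 7532 CPM in the parental ones. KLK3 made up the largest part, and single markers differed more than the sum. TMPRSS2 had 358 and 139 CPM in C4K13A and 106.5 in C5K13A, against 713 and 319 CPM in parental cells. KLK2 had 438 and 310 CPM in C4K13A and 115 in C5K13A, against 511 and 298 CPM in parental cells. The K13A and parental libraries overlapped in both. The 6 leukocyte and 4 basal epithelial markers were each under 1 CPM in every library. Of 6 fibroblast markers 3 were under 1 CPM throughout and LUM was at 0, with sums of 6.82 to 9.02 CPM in the K13A libraries and 9.03 to 9.82 CPM in the parental ones. Of 5 endothelial markers 4 were under 1 CPM throughout, and the sums were 2.66 to 4.34 CPM in the K13A libraries and 5.61 to 5.73 CPM in the parental ones. Any part of these low levels in the results was not tested. HOXB13 had 344 and 348 CPM in C4K13A and 352 in C5K13A, against 338 and 448 CPM in parental cells, and gene counts cannot show the substitution itself. Residual mitochondrial ribosomal RNA differed between libraries of 1 group, with 65.4 and 353 CPM in C4K13A, 658 CPM in C5K13A, and 29.03 and 1723 CPM in parental cells. These values alone were taken without TMM factors.

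The uptake and transsulfuration genes SLC7A11 and CTH were lower in every K13A library than in either parental one, with K13A means of 0.227 and 0.189 of the parental means, and GCLC was lower to a smaller degree. In bulk RNA, fewer cells that express a gene and less RNA per cell cannot be told apart. The other 7 genes had other patterns: GCLM, GPX4 and TXNRD1 had overlapping libraries, GSS and NQO1 were higher in every K13A library, and CBS and GSR overlapped, with parental libraries that differed 1.82-fold and 1.64-fold. Over all genes tested 14.9% were lower and 13.6% higher in the K13A libraries with no overlap, 28.5% in all. Of the 10 genes 3 were lower and 2 higher in this way. By edgeR's quasi-likelihood test with Benjamini-Hochberg adjustment over 20649 genes, 42 genes (0.203%) differed between the K13A and parental libraries at 0.05, 39 (0.189%) of them lower and 3 (0.0145%) higher. SLC7A11 and CTH were among these, and both stayed so without C5K13A. Without C4K13A library 1, C4K13A library 2, parental library 1 or parental library 2, the count over the 10 genes was 0, and that over all genes was 15, 6, 0 and 26 in turn, against 130 without C5K13A. Since the 10 genes were listed with this comparison known, the count of 2 is a description from which nothing is read, and their fold changes are given with standard errors and without p-values. The median log2 fold change was -0.08 over the 10 genes, against -0.00474 over all genes tested.

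**Figure D1:**
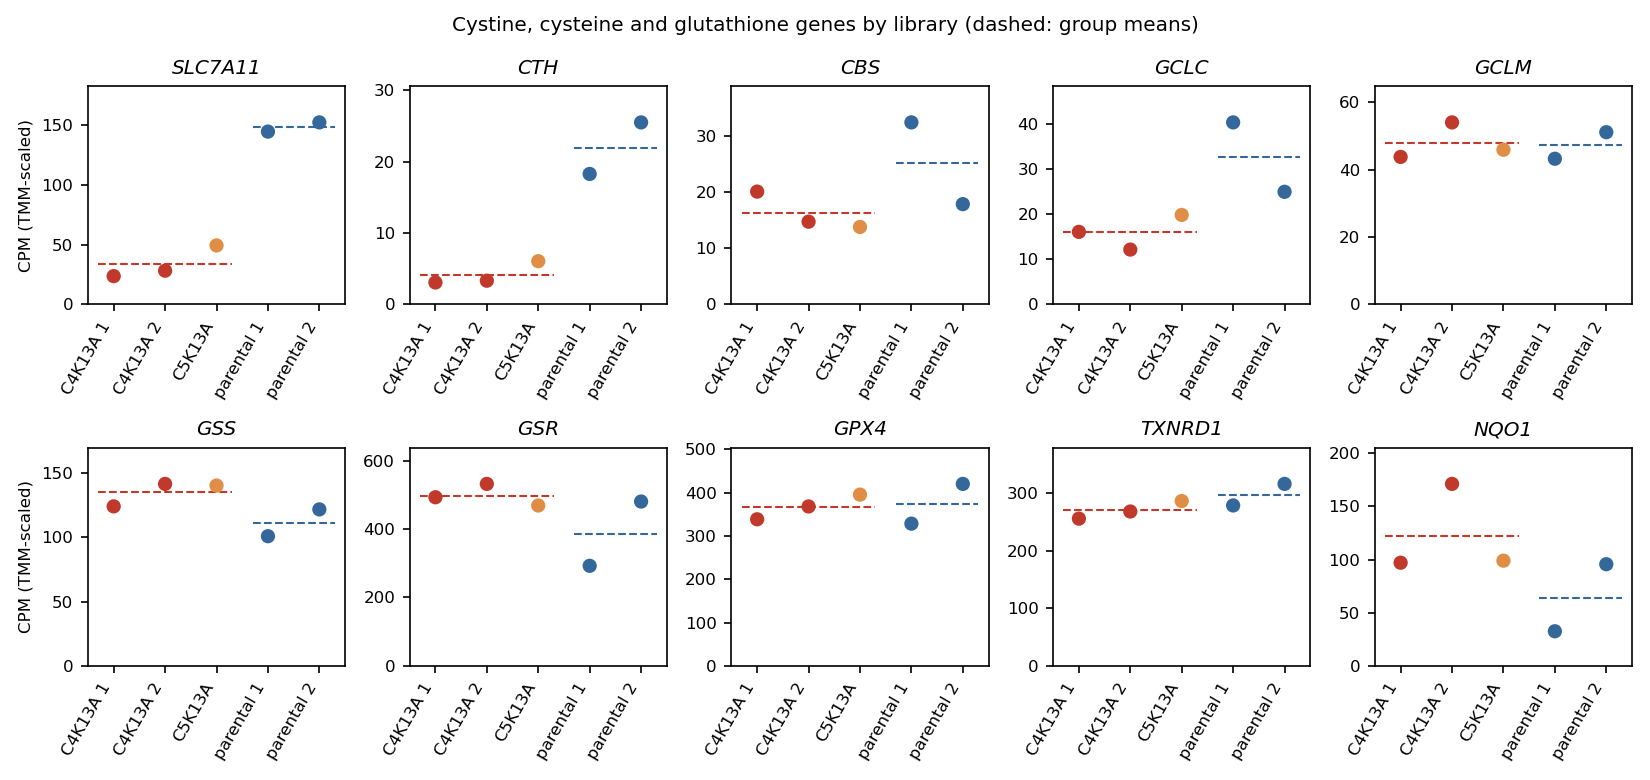
CPM (vertical axis, from 0) of each of the 10 genes in each library (horizontal axis), with C4K13A in red, C5K13A in orange and parental in blue, and dashed lines for the means of the 3 K13A and the 2 parental libraries. SLC7A11 stands at 23.6 to 49.3 CPM in the K13A libraries and at 144 and 152 CPM in the parental ones, while the GPX4 and TXNRD1 libraries overlap.

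SLC7A11, the cystine-binding light chain of the exchanger (ENSG00000151012, chr4:138164097-138242349, minus strand, GRCh38 in GENCODE v29), had 23.6 and 28.2 CPM in C4K13A and 49.3 in C5K13A, against 144 and 152 CPM in parental cells. The parental libraries lay within 1.05-fold of each other and the K13A libraries within 2.09-fold, and the groups were far apart. The log2 fold change was -2.14 ± 0.29 (SE, n = 3 and 2), where n here and below counts libraries and not clones. Such errors treat the 2 C4K13A libraries as separate replicates. The gene shares 865 exon bases with SLC7A11-AS1 on the other strand. That antisense gene had 10, 10 and 7 counts in the K13A libraries and 44 and 54 in the parental ones, few beside the 1184 to 2092 SLC7A11 counts in the K13A libraries and the 8573 and 7736 in the parental ones. Reads of the overlap cannot be assigned to a strand, since the strand setting is not given in the sources used here.

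SLC3A2, the heavy chain that carries SLC7A11 and several other amino acid transporters to the membrane, had 134 and 151 CPM in C4K13A and 193 in C5K13A, against 313 and 294 CPM in parental cells. Its groups did not overlap either, and its log2 fold change was -0.93 ± 0.18 (adjusted p = 0.147, edgeR), which missed the threshold. SLC3A2 too was listed with earlier results of these data known, so this adjusted p-value is a description. Per exon base the ratio of SLC7A11 to SLC3A2 counts was 0.0945 and 0.1002 in C4K13A and 0.137 in C5K13A, against 0.248 and 0.278 in parental cells. The light chain was thus lower relative to its partner in each K13A library, a ratio that no scaling of libraries affects.

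CTH, cystathionine gamma-lyase, which releases cysteine (ENSG00000116761, chr1:70411218-70439851, plus strand, GRCh38), had 3.07 and 3.32 CPM in C4K13A and 6.06 in C5K13A, against 18.3 and 25.5 CPM in parental cells. Its counts ran from 142 to 257 in the K13A libraries and were 1085 and 1297 in the parental ones. The log2 fold change was -2.40 ± 0.32 (SE, n = 3 and 2), the lowest of the 10 genes. Per exon base SLC7A11 had 1.92 and 2.12 times the CTH counts in C4K13A and 2.04 times in C5K13A, against 1.98 and 1.49 times in parental cells, a narrow range across libraries in which each gene varied several-fold.

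CBS, cystathionine beta-synthase, which feeds CTH its substrate, had 20.1 and 14.7 CPM in C4K13A and 13.8 in C5K13A, against 32.4 and 17.8 CPM in parental cells. Parental library 2 lay below C4K13A library 1, so the groups overlapped. Its log2 fold change was -0.63 ± 0.28, and it was -0.14 without parental library 1 and -0.998 without parental library 2. CBS lies on chromosome 21, where GRCh38 holds a near-identical copy, CBSL. CBSL had 13 to 17 counts in the K13A libraries and 25 and 12 in the parental ones. CBS itself had 585 to 1006 counts in the K13A libraries and 1922 and 907 in the parental ones. How reads that match both were handled is not given in the sources used here, so the CBS level is uncertain.

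**Figure D2:**
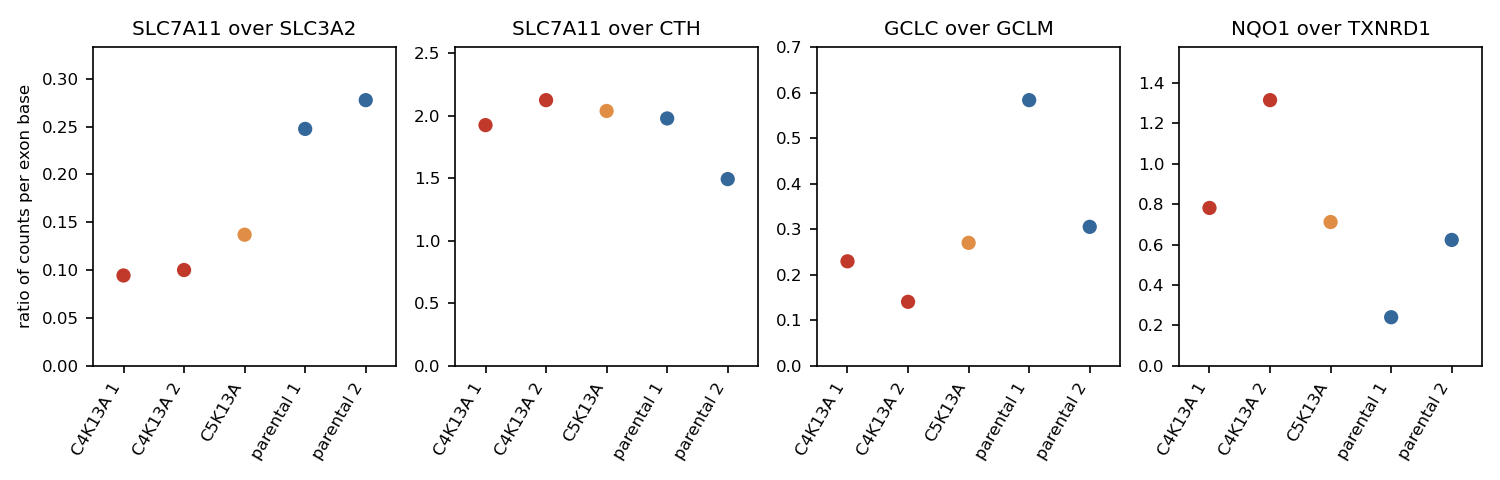
Ratio of counts per exon base (vertical axis, from 0) of 4 gene pairs in each library (horizontal axis; C4K13A red, C5K13A orange, parental blue). SLC7A11 over SLC3A2 is 0.0945 to 0.137 in the K13A libraries and 0.248 to 0.278 in the parental ones, and SLC7A11 over CTH lies between 1.49 and 2.12 in all 5.

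The promoter of CTH is shown because CTH, like SLC7A11, was lower in every K13A library than in either parental one. Those of GCLC, GCLM and TXNRD1 are shown because these genes share the pathway of CTH and differed in their values. Each is a RefSeq window on GRCh38.p14, from 250 bases before the annotated start to 50 after it, and 7 of the 10 genes had at least 1 window in the RefSeq table. All were searched on both strands for the CARE letters TGATGNAAN, a form of the element that ATF4 binds, and for the ARE letters TGACNNNGC, a form of the element that NRF2 binds, and matches are in capitals. On 1 strand no stretch can match both from the same first base. Among all 35116 RefSeq windows, 3.61% held the CARE letters and 13.3% the ARE letters. The CTH window (chr1:70411018-70411317, plus strand) held neither.
CTH: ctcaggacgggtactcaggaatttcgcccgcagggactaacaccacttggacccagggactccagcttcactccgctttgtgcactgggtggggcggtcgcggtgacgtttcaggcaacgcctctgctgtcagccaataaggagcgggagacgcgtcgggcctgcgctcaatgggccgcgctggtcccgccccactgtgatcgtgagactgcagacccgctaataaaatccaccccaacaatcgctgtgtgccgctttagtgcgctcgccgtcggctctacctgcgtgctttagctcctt

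GCLC, the catalytic subunit of glutamate-cysteine ligase, the rate-limiting enzyme of glutathione synthesis, had 16.04 and 12.1 CPM in C4K13A and 19.8 in C5K13A, against 40.3 and 24.9 CPM in parental cells. Each K13A library lay below both parental ones, but C5K13A and parental library 2 were close. Its log2 fold change was -1.03 ± 0.27 (SE, n = 3 and 2), with -0.64 without parental library 1 and -1.33 without parental library 2. GCLM, the modifier subunit that raises the ligase's affinity for glutamate, had 43.8 and 54.0 CPM in C4K13A and 45.9 in C5K13A, against 43.2 and 51.1 CPM in parental cells. These libraries interleaved, and the log2 fold change was 0.02 ± 0.16. The sign of GCLM depended on the parental library used, with -0.10 when library 1 was left out and 0.15 when library 2 was. Per exon base, GCLC had 0.230 and 0.141 of the GCLM counts in C4K13A and 0.270 in C5K13A, against 0.584 and 0.305 in parental cells. By these lengths, 8646 exon bases for GCLC and 5420 for GCLM, the catalytic subunit was the lower one in each library, and more so in each K13A library. Which exons were in use was not determined, so which subunit was lower depends on the lengths taken. The GCLC window (chr6:53545052-53545351, minus strand) held neither set of letters. The GCLM window (chr1:93909381-93909680, minus strand) held the ARE letters once, on the reverse strand, beginning 34 bases before the start.
GCLC: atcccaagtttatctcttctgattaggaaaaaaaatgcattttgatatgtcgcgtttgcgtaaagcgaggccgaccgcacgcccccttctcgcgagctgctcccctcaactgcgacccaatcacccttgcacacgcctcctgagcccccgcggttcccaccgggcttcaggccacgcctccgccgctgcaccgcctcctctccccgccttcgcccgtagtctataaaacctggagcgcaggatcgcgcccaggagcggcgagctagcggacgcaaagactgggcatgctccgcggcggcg
GCLM: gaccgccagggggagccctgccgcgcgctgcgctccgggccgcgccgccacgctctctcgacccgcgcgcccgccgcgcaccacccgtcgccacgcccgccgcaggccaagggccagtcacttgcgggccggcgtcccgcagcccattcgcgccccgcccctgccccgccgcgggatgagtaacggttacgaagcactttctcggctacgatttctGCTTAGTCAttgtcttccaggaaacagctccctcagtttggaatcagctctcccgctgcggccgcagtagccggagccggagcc

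GSS, glutathione synthetase, which adds glycine in the last step, had 124 and 141 CPM in C4K13A and 140.1 in C5K13A, against 101 and 122 CPM in parental cells. Each K13A library lay above both parental ones, though C4K13A library 1 exceeded parental library 2 only slightly, and the log2 fold change was 0.28 ± 0.16. GSR, glutathione reductase, which returns oxidised glutathione to its reduced form, had 493 and 532 CPM in C4K13A and 469 in C5K13A, against 292 and 480 CPM in parental cells. The K13A libraries lay within 1.13-fold of each other and the parental ones within 1.64-fold. Its log2 fold change was 0.37 ± 0.22, with 0.05 without parental library 1 and 0.77 without parental library 2. GPX4, the selenoenzyme that reduces lipid hydroperoxides and holds back ferroptosis, had 339 and 368 CPM in C4K13A and 395 in C5K13A, against 328 and 420.2 CPM in parental cells. All 3 K13A values fell between the parental ones, and its log2 fold change was -0.03 ± 0.17.

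TXNRD1, the cytosolic thioredoxin reductase, a selenoenzyme that can also help reduce cystine, had 256 and 268 CPM in C4K13A and 287 in C5K13A, against 279 and 316 CPM in parental cells. The libraries overlapped, and the log2 fold change was -0.14 ± 0.15. It had the narrowest range of the 10 genes in the K13A libraries, 1.12-fold. A processed pseudogene, RPL18AP3, lies within TXNRD1 on the same strand and shares 0 exon bases with it. The first of the TXNRD1 windows (chr12:104215529-104215828, plus strand) held the ARE letters on both strands, beginning 99 and 8 bases before the start. The second TXNRD1 window held them once, 102 bases before the start, and the first CBS window once, 83 bases before. In all, 3 of the 7 genes with a window held the ARE letters and 0 held the CARE letters. Among all 27305 genes with a window these shares were 16.1% and 4.45%. SLC7A11, GSS and GSR had no window and were not searched. Nothing about binding follows from a match or its absence.
TXNRD1: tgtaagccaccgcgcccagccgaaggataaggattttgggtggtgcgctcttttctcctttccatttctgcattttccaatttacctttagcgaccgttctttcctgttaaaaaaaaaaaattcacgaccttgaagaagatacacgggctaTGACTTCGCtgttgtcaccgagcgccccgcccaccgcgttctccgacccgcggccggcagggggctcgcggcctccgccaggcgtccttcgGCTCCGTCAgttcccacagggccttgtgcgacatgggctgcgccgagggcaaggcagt

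NQO1, a quinone reductase widely used as a readout of NRF2 activity (chr16:69706996-69726951, minus strand, GRCh38), had 97.0 and 171 CPM in C4K13A and 98.9 in C5K13A, against 32.5 and 95.6 CPM in parental cells. Each K13A library lay above both parental ones, but parental library 2 differed little from C4K13A library 1 and C5K13A. The parental libraries differed 2.94-fold, the widest spread within parental cells among the 10 genes. Its log2 fold change was 0.93 ± 0.44 (SE, n = 3 and 2), with 0.35 without parental library 1 and 1.91 without parental library 2. Per exon base NQO1 had 0.781 and 1.31 times the TXNRD1 counts in C4K13A and 0.712 times in C5K13A, against 0.241 and 0.623 times in parental cells. Of the known NRF2-responsive genes of the set, SLC7A11 was at -2.14, GCLC at -1.03 and TXNRD1 at -0.14. GCLM was at 0.02, GSR at 0.37 and NQO1 at 0.93, and a part of NRF2 in these values was not tested.

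Residual mitochondrial ribosomal RNA was under 200 CPM in C4K13A library 1 and parental library 1 and higher in the other 3 libraries. Values were therefore also taken within each of these sets, as log2 ratios of CPM + 0.5. The ratio of C4K13A library 1 to parental library 1 was -2.59 for SLC7A11, -2.39 for CTH, -1.30 for GCLC, 0.75 for GSR and 1.56 for NQO1. The ratio of the mean of C4K13A library 2 and C5K13A to parental library 2 was -1.96 for SLC7A11, -2.33 for CTH, -0.63 for GCLC, 0.06 for GSR and 0.50 for NQO1. SLC7A11 and CTH were thus lower in both sets. SLC7A11, GCLC, GSR and NQO1 differed less from parental where residual ribosomal RNA was higher, and CTH differed by nearly the same amount. Each set holds 1 parental library, and the C5K13A library is in the higher set alone, so residual ribosomal RNA, the parental library used and the clone cannot be told apart.

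Levels were compared between genes as CPM per kilobase of exon, so the order depends on the exon lengths taken. GPX4 was highest, at 168 to 196 in the K13A libraries and 163 and 208 in the parental ones. GSR followed, at 125 to 141 in the K13A libraries and 77.8 and 128 in the parental ones. TXNRD1 came next, at 38.1 to 42.7 in the K13A libraries and 41.6 and 47.1 in the parental ones. These 3 genes did not overlap with one another, whereas TXNRD1 and NQO1 did, as did NQO1 and GSS. SLC7A11 changed its place in this order. In the parental libraries it stood at 14.98 and 15.8 CPM per kilobase, above GCLM at 7.98 and 9.43, and in the K13A libraries it stood at 2.45 to 5.11, below GCLM at 8.08 to 9.97. CTH stood at 1.27 to 2.51 in the K13A libraries, within reach of GCLC at 1.403 to 2.29 and CBS at 2.03 to 2.96. In the parental libraries CTH stood at 7.58 and 10.6, above GCLC at 2.88 and 4.66 and CBS at 2.63 and 4.77.

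Both clones were lower than parental cells in SLC7A11 and CTH, and C4K13A more so. In a fit of 3 groups, with the lone C5K13A library assumed to vary like the others, SLC7A11 had log2 fold changes of -2.52 ± 0.19 in C4K13A and -1.58 ± 0.24 in C5K13A over parental. CTH had -2.78 ± 0.26 in C4K13A and -1.85 ± 0.33 in C5K13A. GCLC had -1.21 ± 0.27 in C4K13A and -0.71 ± 0.34 in C5K13A. CBS was the other way round, with -0.53 ± 0.30 in C4K13A and -0.86 ± 0.39 in C5K13A. These contrasts share the parental libraries, which were also used to choose the genes, so they are given without tests.

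**Figure D3:**
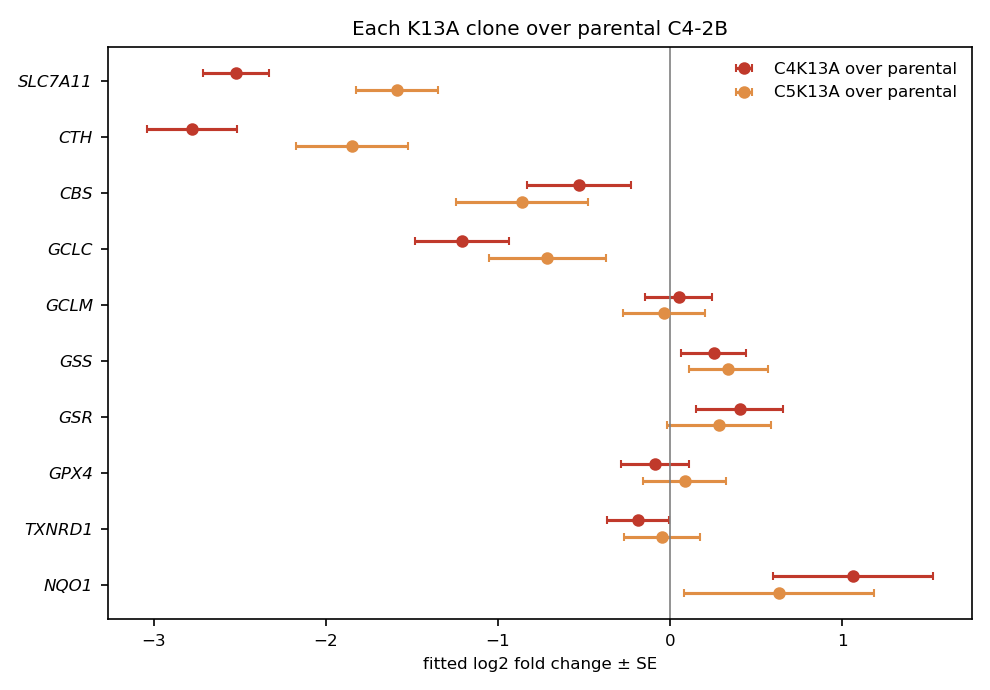
Fitted log2 fold changes (horizontal axis) of the 10 genes in C4K13A (red) and C5K13A (orange) over parental, with bars for the standard error. SLC7A11 lies at -2.52 and -1.58 and CTH at -2.78 and -1.85, and GCLM, GPX4 and TXNRD1 lie near 0, between -0.18 and 0.08.

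The clones were then compared with each other. This was not the comparison by which the genes were listed, but it shares the K13A libraries with it. SLC7A11 had 49.3 CPM in C5K13A, against 23.6 and 28.2 CPM in C4K13A, a log2 difference of 0.94 ± 0.22 that missed the threshold (adjusted p = 0.332, edgeR over 22743 genes). CTH differed by nearly the same amount, 0.93 ± 0.30 (adjusted p = 0.655). The other 8 genes lay between -0.43 ± 0.57 for NQO1 and 0.50 ± 0.32 for GCLC, with adjusted p of 0.902 or more. edgeR called 0 of the 10, as did DESeq2 and limma-voom, and edgeR called 15 of all genes (0.066%). At an unadjusted p under 0.05 there were 2 of the 10, SLC7A11 and CTH, against 1460 of all 22743 genes. Without parental library 1 the SLC7A11 difference was again 0.94. That library enters this contrast through the shared spread, the filter on low counts and the TMM factors. Over 11 alternatives the SLC7A11 difference ran from 0.82 to 1.06, and it passed the threshold in 2 of them.

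The genes whose values across the 5 libraries were most like those of SLC7A11 were sought among 10261 other protein-coding genes with a mean of at least 5 CPM. Likeness was the root mean square difference of log2(CPM + 0.5), each gene centred on its own mean. CTH was the nearest of all, at 0.15. Next came DUSP27, a dual-specificity phosphatase family gene, at 0.18, ATP1B1, the beta subunit of the sodium pump, at 0.22, and SLC6A9, a glycine transporter, also at 0.22. DDIT3, the stress transcription factor CHOP, was the fifth, at 0.26. For CTH the nearest were SLC7A11 at 0.15, DUSP27 at 0.25, ATP1B1 at 0.27, BCL11B, a zinc finger transcription factor, at 0.31 and SLC6A9 at 0.34. Among the 10 genes GCLC came next after CTH, at 0.69 from SLC7A11, and NQO1 was farthest, at 1.74. With 5 libraries in 3 groups, a small difference shows only that the genes were low and high in the same libraries. SLC7A11 and CTH were also both listed with the difference between K13A and parental libraries known. That difference is part of the values compared, so their rank as nearest to each other is a description.

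**Figure D4:**
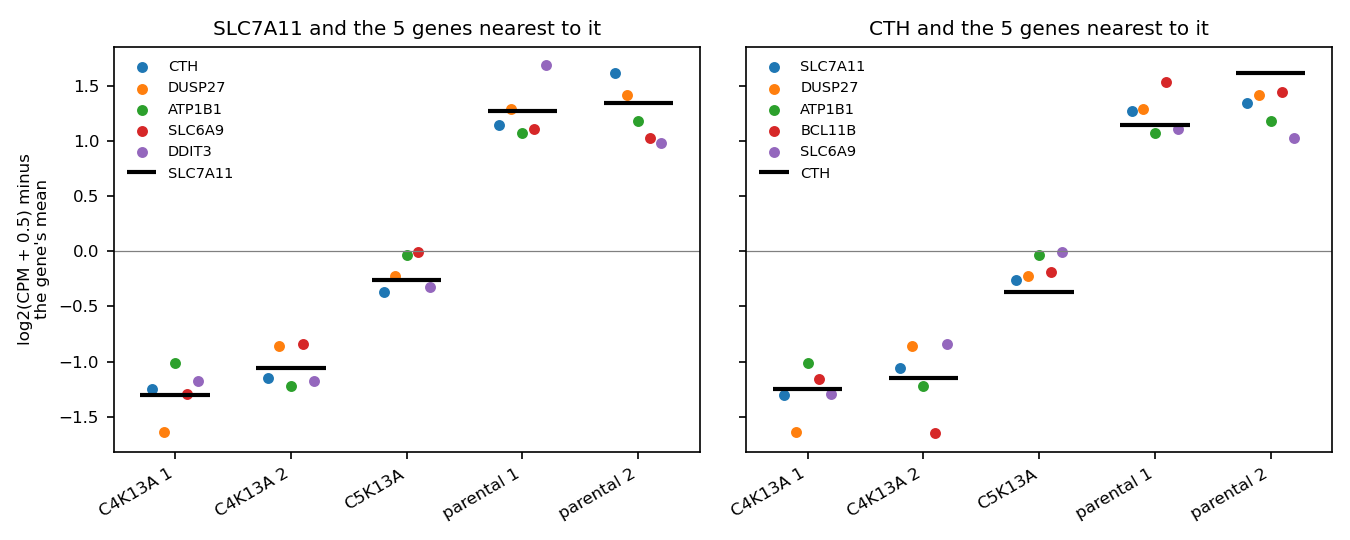
log2(CPM + 0.5) minus each gene's mean over the 5 libraries (vertical axis) by library (horizontal axis), for SLC7A11 (left, black bars) and CTH (right, black bars) with the 5 protein-coding genes nearest to each (points, set side by side within a library). All are lowest in the C4K13A libraries, between in C5K13A and highest in the parental ones.

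Other genes of sulfur amino acid, glutathione and redox metabolism were taken from 11 lists, with 140 genes in the table, of which 119 passed the filter on low counts. edgeR called 1 of the 119, higher in the K13A libraries, against 0.0145% of all genes called higher, and 29 had an unadjusted p under 0.05, against 2266 of all 20649 genes. DESeq2 called 15 of the listed genes, against 555 over all genes, and limma-voom 1, against 11. These lists too were chosen with earlier results of these data known. Counts of calls and adjusted p-values of their genes are thus a description, here and below. The gene that edgeR called was TXNIP, which binds and inhibits thioredoxin. It had 58.4 and 85.8 CPM in C4K13A and 106 in C5K13A, against 1.82 and 4.96 CPM in parental cells (log2 fold change 4.63 ± 0.48, adjusted p = 0.0182, edgeR). TXNIP was not called without parental library 1 or without C4K13A library 2, when 0 of the listed genes were. Over all genes 0 and 6 were called there. Without C5K13A 8 of the listed genes were called, against 130 over all genes. The list that holds TXNIP, of thioredoxin and glutaredoxin genes, had positive values in 6 of 9 and a median of 0.25. In the other 10 lists edgeR called 0 of 110 genes, and 28 were among those 2266 genes with an unadjusted p under 0.05. Of all 20649 genes, 50.6% had negative log2 fold changes. From each of these lists the gene with the largest fold change is given with its values.

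Transporters of cystine and cysteine had negative values in 5 of 7 tested genes and a median of -0.64. SLC1A4, a neutral amino acid transporter that accepts cysteine, had 18.02 and 20.0007 CPM in C4K13A and 26.0 in C5K13A, against 47.4 and 49.1 CPM in parental cells (-1.18 ± 0.19, adjusted p = 0.0750, edgeR). In the methionine cycle 5 of 9 genes were negative with a median of -0.05, and MAT1A, a methionine adenosyltransferase best known from liver, had 2.41 and 2.41 CPM in C4K13A and 4.45 in C5K13A, against 12.5 and 8.68 CPM in parental cells (-1.78 ± 0.34, adjusted p = 0.128, edgeR). Genes of cysteine breakdown and sulfide had a median of 0.06 over 8 genes, with SUOX, sulfite oxidase, at 74.7 and 70.8 CPM in C4K13A and 57.8 in C5K13A, against 35.0 and 44.6 CPM in parental cells (0.77 ± 0.18, adjusted p = 0.211, edgeR).

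Glutathione breakdown and export had a median of 0.08 over 10 genes. CHAC1, which degrades cytosolic glutathione and is a known target of the ATF4 and CHOP pathway, had 8.001 and 13.7 CPM in C4K13A and 31.7 in C5K13A, against 34.5 and 83.3 CPM in parental cells. The C5K13A library was close to parental library 1, and the change of -1.73 ± 0.55 missed the threshold (adjusted p = 0.311, edgeR). Glutathione peroxidases and peroxiredoxins had a median of 0.09 over 11 genes, with GPX8, an endoplasmic reticulum member, at -0.66 ± 0.37. Glutathione transferases had a median of 0.22 over 14 genes. GSTA2 had 0.619 and 6.29 CPM in C4K13A and 26.2 in C5K13A, against 0.489 and 0.925 CPM in parental cells (3.97 ± 1.32, adjusted p = 0.332, edgeR). The C4K13A libraries differed widely in GSTA2, and GSTA genes are similar enough that the counting could split reads between them.

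NFE2L2, which encodes NRF2, had 55.6 and 60.5 CPM in C4K13A and 52.7 in C5K13A, against 52.1 and 56.6 CPM in parental cells (0.05 ± 0.15), and KEAP1, its inhibitor, had 167 and 207 CPM in C4K13A and 213 in C5K13A, against 152 and 189 CPM in parental cells (0.20 ± 0.18). The transcripts of both overlapped between groups. Among NRF2 regulators 5 of 8 were negative with a median of -0.48, and MAFF, a small partner of NRF2, had 0.858 and 1.78 CPM in C4K13A and 1.44 in C5K13A, against 4.48 and 3.54 CPM in parental cells (-1.57 ± 0.37, adjusted p = 0.201, edgeR). NRF2 targets outside glutathione metabolism had 8 positive and 8 negative values and a median of -0.02, and FTH1, the ferritin heavy chain, had 601 and 697 CPM in C4K13A and 597 in C5K13A, against 1009 and 879 CPM in parental cells, a log2 fold change of -0.58 ± 0.16 (adjusted p = 0.255, edgeR). Genes of ferroptosis and selenoprotein synthesis had a median of -0.04 over 17 genes, with AIFM2, which reduces coenzyme Q, at -0.81 ± 0.57.

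ATF4 and 9 targets outside this metabolism were all negative, against 50.6% of all genes tested, with a median of -1.13. This list was also chosen with earlier results of these data known, and a part of ATF4 in the results was not tested. ATF4 had 365 and 416 CPM in C4K13A and 483 in C5K13A, against 902 and 871 CPM in parental cells (-1.07 ± 0.17, adjusted p = 0.0735, edgeR), and DDIT3 had 6.64 and 6.61 CPM in C4K13A and 12.4 in C5K13A, against 51.5 and 31.3 CPM in parental cells (-2.28 ± 0.33, adjusted p = 0.0524, edgeR). All 10 lay higher in C5K13A than in C4K13A, as SLC7A11 and CTH did, by 0.24 to 0.97, and edgeR called 0 of them there. Over all the further lists, this one included, 86 of 122 tested genes lay higher in C5K13A. Of all 22743 genes, 52.6% lay lower in C5K13A than in C4K13A.

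**Figure D5:**
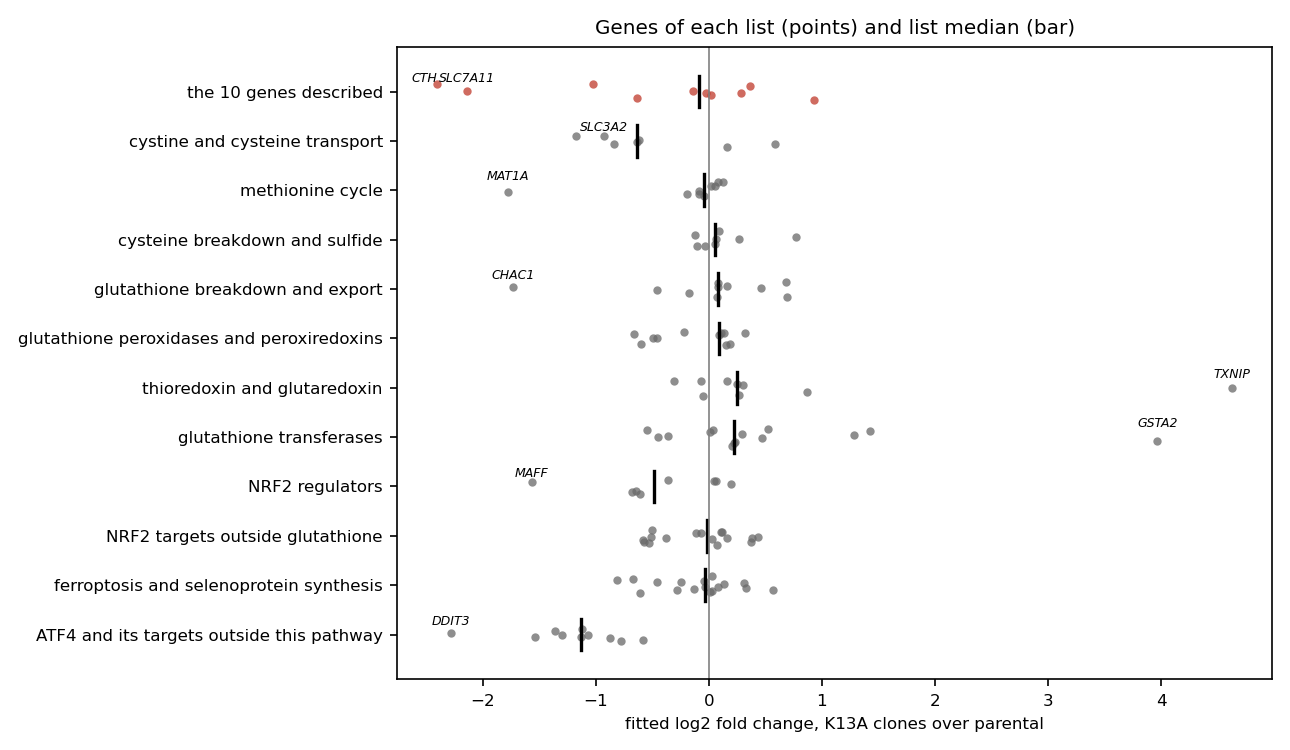
Fitted log2 fold changes, K13A clones over parental (horizontal axis), of the 10 genes described (red) and of the tested genes of 11 further lists (grey points), with a black bar for each median. The ATF4 list has its median at -1.13 and all 10 genes below 0, against 50.6% of all genes tested. TXNIP, at 4.63, is the one grey point that was called.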

How the data were processed

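Total RNA depleted of ribosomal RNA by RiboErase was treated with DNase I and read on an Illumina HiSeq instrument, per the labels' protocols. The authors deposited 1 table of raw read counts per gene and library, and per the submitters' processing notes the tools were bcl2fastq, STAR 2.5, Subread and featureCounts 1.4.6-p5. The genome build, annotation, strand setting and treatment of multiply mapped reads were not given in the sources used here.

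Ensembl IDs were given symbols through GENCODE 29 (GRCh38): 55297 of 58812 matched, and 181 of 182 listed symbols were found (GSTT1 was not analysed here). Genes were kept by filterByExpr with a minimum count of 10, scaled with TMM factors and fitted with edgeR 4.0.16's quasi-likelihood test in R 4.3.3. Adjustment was by Benjamini-Hochberg over all genes tested, with a threshold of 0.05, and the script was tested on simulated data. K13A clones against parental cells used 2 groups (3 residual degrees of freedom). Clone contrasts used 3 groups (2 residual degrees of freedom). Standard errors are the log2 fold change over the square root of F, and exon lengths are unions over transcripts. Counts are of reads, with no molecular identifiers, and CPM carries counting error as well as the spread shown.

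Alternatives were RLE factors, other filters, DESeq2 1.42.0, limma-voom (limma 3.58.1), omission of ribosomal, small and mitochondrial RNA genes, a ribosomal RNA covariate, summed C4K13A libraries, a replicate block and omission of each library.

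The 10 genes and all lists were chosen with earlier results of these data known. Besides the 10, the text names SLC3A2, CHAC1, NFE2L2, KEAP1, ATF4, TXNIP and HOXB13 as partners or regulators, the called genes of each further list or else the one with the largest fold change, and the 5 nearest genes to SLC7A11 and CTH. SLC7A11-AS1, CBSL and RPL18AP3 are named as neighbours or copies. KLK2, KLK3 and TMPRSS2 were singled out among the markers after their values were seen.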

Additional observations from a re-analysis of the deposited data

How the results depend on the processing

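For the K13A clones over parental, 127 of 140 refitted fold changes of the 10 genes moved by less than the standard error of the reported value. SLC7A11 stayed between -2.52 and -1.94 and CTH between -2.78 and -2.14. Both moved by more than that error where C5K13A was left out, with or without the replicate block. GCLM changed sign in 5 and GPX4 in 2 of 14 alternatives. The numbers of calls were less steady. Against 42 genes called, no filter gave 1167, a minimum of 5 CPM 2, DESeq2 555, limma-voom 11, the ribosomal RNA covariate 71 and summed C4K13A libraries 11, and leaving out a library gave 0 to 130. Against 2 of the 10 genes, no filter gave 4 and a minimum of 5 CPM, limma-voom and summed libraries 0, with 0 to 2 on leaving out a library. Against 1 gene of the further lists, no filter gave 23, DESeq2 15, the covariate 2, and a minimum of 5 CPM and summed libraries 0, with 0 to 8 on leaving out a library. For C5K13A over C4K13A, against 15 genes, no filter gave 423, a minimum of 5 CPM and limma-voom 0, DESeq2 182 and the covariate 92, with 51 to 155 on leaving out a library. Of the 10 genes 1 was called with no filter and 0 to 1 on leaving out a library, against 0. Signs turned for CBS (0.0153) and GSS (-0.0253) with the covariate, and on leaving out a library for GSS (-0.00162 to 0.178), GCLM (-0.224 to 0.0698) and NQO1 (-0.779 to 0.0298). The causes were not tested. Leaving out C5K13A gives no value for that contrast.

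A replicate block over parental and C4K13A libraries 1 and 2, without C5K13A, called 885 genes, 4 of the 10 and 23 of the further lists. Same-numbered libraries deviated together (correlation 0.26 over genes), but 2 pairs do not establish a pairing, and the numbers are only shared. With 5 libraries, the standard errors of the 10 genes for K13A over parental ran from 0.15 to 0.44 on the log2 scale.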
